A study of Homo sapiens with 24 samples.

Results

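The 6 libraries described here come from tumours of COLO320DM, a human colorectal adenocarcinoma line, that were grown in mice and carried the hairpin sh1487 on a doxycycline (dox) diet. In 3 of them the labels add a cDNA (sh1487 cDNA dox) and in 3 they do not (sh1487 dox). They were taken by these labels from the 24 libraries of the series, which form 8 groups of 3 by hairpin (shNT or sh1487), cDNA and dox. The diet began when tumours averaged 150 mm3 and the tumours were collected on day 3, which the labels give as 72 hr. The same comparison without dox, sh1487 cDNA no dox against sh1487 no dox, was used to show where the comparison on dox differs, and it shares no library with them. The labels name neither the gene that sh1487 targets nor the gene the cDNA encodes. They do not say whether a line is a clone, nor whether the replicates are separate tumours, so the p-values measure the spread between these libraries, which may be technical. The cDNA and any other difference between the lines that carry and lack it cannot be told apart.

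The series title names β-catenin and TCF. β-Catenin, encoded by CTNNB1, joins cadherins at the cell surface and is the effector of canonical Wnt signalling. A destruction complex built on APC and AXIN marks it for degradation, and where the complex fails, as it does in most colorectal cancers, β-catenin enters the nucleus, binds TCF/LEF factors and turns on genes of the crypt base, of proliferation and of feedback on the pathway itself. In the gut its loss is known to end crypt cell division and to let cells differentiate.

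Depth in the 6 libraries ranged from 54122754 to 76514519 reads recovered from the deposited CPM, which are reads scaled to library depth. In these libraries 3 reads amount to 0.0368 to 0.0532 CPM, a limit for counting error only. Mitochondrially encoded genes took 11.5% to 13.5% of reads. Of 12 colorectal epithelial markers 8 had a value, and none of these was at 3 reads or fewer in all 6 libraries. CDX2, the intestinal homeobox factor, stood at 1325, 1518 and 1332 CPM with cDNA and 986, 1030.2 and 1004 without, while the epithelial adhesion genes EPCAM and CDH1 were low, at 0.755 ± 0.109 against 1.45 ± 0.201 CPM and 0.174 ± 0.0772 against 1.12 ± 0.127 CPM (mean ± SD, n = 3). The summed CPM of the epithelial markers was 1618 to 1816 with cDNA and 1603 to 1682 without, most of it from CDX2. Of the 7 epithelial markers tested, 5 were lower and 2 higher with cDNA, against 40.7% and 36.5% of all genes tested. For 8 of 13 fibroblast and pericyte markers with a value the sum was 142 to 151 against 91.1 to 94.6, with LUM and FAP under 1 CPM in all 6 libraries. For 4 of 11 endothelial markers it was 91.5 to 93.9 against 161 to 173, most of it from FLT1 and ERG, and CLDN5 was under 1 CPM. For 5 of 13 leukocyte markers it was 38.6 to 43.9 against 48.6 to 50.3, most of it from PTPRC. For 3 of 7 erythroid markers it was 16.7 to 17.999 against 7.45 to 9.84. The fibroblast, endothelial, leukocyte and erythroid sums thus did not overlap between the groups, and their part in the results was not tested. In bulk tissue fewer cells of a type and less RNA per cell cannot be told apart, and how reads from the mouse host were handled is not given in the sources used here.

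CTNNB1 (ENSG00000168036, chromosome 3, 41194741 to 41260096 on the plus strand, GRCh38) showed the largest difference on dox on the log2(CPM + 1) scale among the genes named by the rule. It was at 610.1, 601 and 569.6 CPM in the 3 sh1487 cDNA dox libraries and at 42.5, 45.6 and 41.9 CPM in the 3 sh1487 dox libraries. Every library with cDNA was above every library without, and the means differed 13.7-fold, a log2 difference of 3.75 ± 0.06 (SE; limma adjusted p 1.46e-18). Without dox the values were 527, 536 and 460.1 CPM with cDNA and 215, 230.2 and 234 CPM without, a log2 difference of 1.16 ± 0.06 (limma adjusted p 2.55e-10). The libraries with cDNA therefore held more CTNNB1 reads under both diets, and the gap on dox was larger by 2.59 ± 0.08 on the log2 scale. The table counts reads per gene, so reads from a cDNA and from the chromosomal gene cannot be told apart. In the libraries with the hairpin shNT on dox, CTNNB1 was at 310.2 ± 16.6 CPM without cDNA and 471 ± 129.6 CPM with it (mean ± SD, n = 3). Log2 differences here and below are cDNA minus no cDNA on log2(CPM + 1), with their SE, and a value ± SE in brackets after a gene is this difference. The scale understates the change of genes near or under 1 CPM. By the ratio of mean CPM on dox, TNFRSF19 differed more than CTNNB1 (18.98-fold higher with cDNA).

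**Figure D1:**
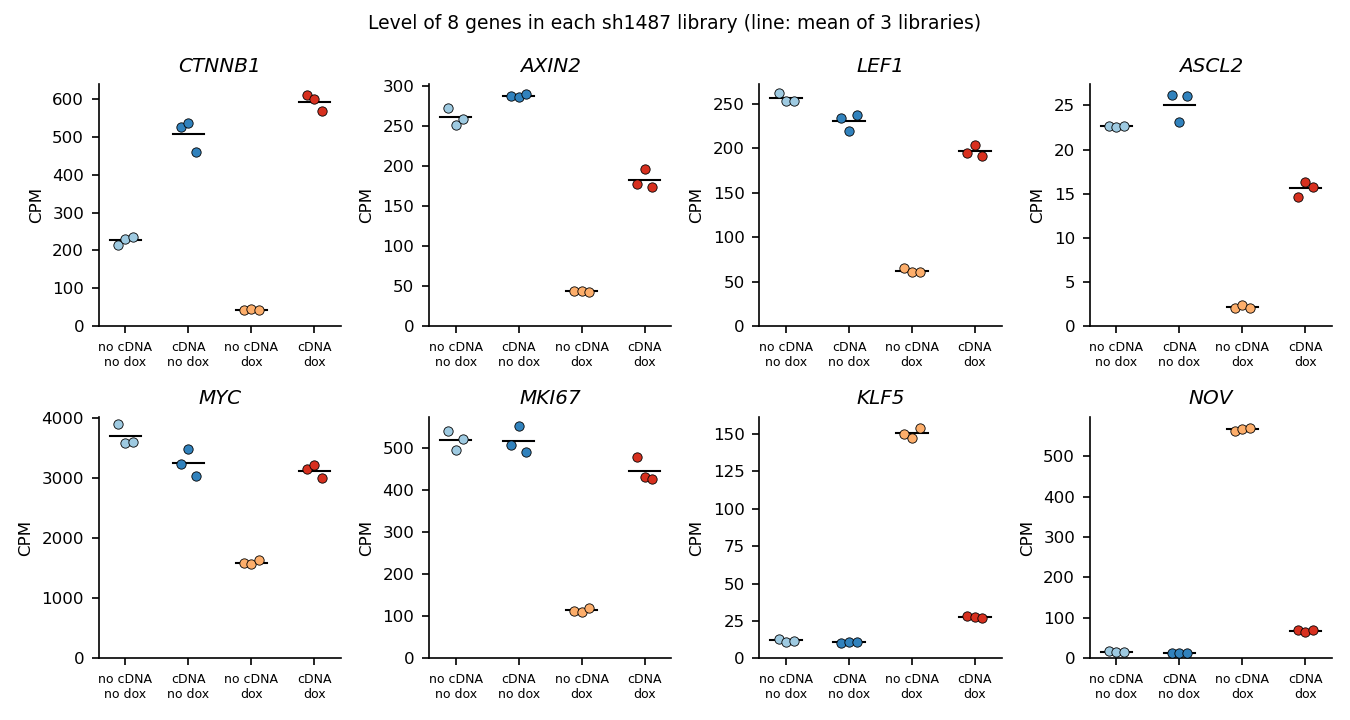
Level in CPM (linear axis from 0) of 8 genes in each of the 12 sh1487 libraries, with a line at the mean of the 3 libraries of a group. CTNNB1, AXIN2, LEF1, ASCL2, MYC and MKI67 sit lowest, and KLF5 and NOV highest, in the 3 libraries on dox without cDNA.

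Other catenin and cadherin genes went in both directions. Of 17 tested, CTNNB1 included, 5 were higher and 10 lower with cDNA on dox, against 36.5% and 40.7% of all 13381 genes tested, and the list's median was -0.25 against -0.03 for all genes. JUP, which encodes the close relative plakoglobin, was at 127, 156 and 127 CPM with cDNA and 399, 415 and 409 without, and no library of the groups overlapped (-1.58 ± 0.08). CTNNA2, an α-catenin that links cadherins to actin, was lower (-1.59 ± 0.05), as was CDH2, the neural cadherin (-1.16 ± 0.09, from 6.11 ± 0.360 to 2.20 ± 0.296 CPM). DSG2, a desmosomal cadherin, went the other way at 306, 301 and 285 CPM with cDNA against 94.5, 87.6 and 93.6 without (1.68 ± 0.06). Without dox DSG2 was lower with cDNA (-0.57 ± 0.06), so its cDNA difference changed sign with the diet. PKP4, an armadillo protein of junctions, was higher under both (0.87 ± 0.04 on dox, 0.41 ± 0.04 without).

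With cDNA on dox, 4882 genes were higher (36.5%) and 5452 lower (40.7%) at an adjusted p under 0.05, together 77.2%, and the groups did not overlap for 10553 genes (78.9%). Differences of at least 2-fold were fewer, with 740 genes higher (5.53%) and 686 lower (5.13%). Without dox 5364 genes were called (40.1%), but at least 2-fold only 24 higher (0.179%) and 3 lower (0.0224%), together 0.202%. Of the 740 genes at least 2-fold higher on dox, 8 were so without dox and 374 were not called there. Of the 686 lower, 3 were so without dox and 415 were not called. The difference between the 2 cDNA effects was itself called for 9530 genes (71.2%), at least 2-fold for 884 with a more positive effect on dox (6.61%) and 813 with a more negative one (6.08%). The word effect stands here and below for the difference between lines with and without cDNA, whatever its source. Across the 13381 genes the log2 differences on and off dox had a Pearson correlation of -0.0171 and a Spearman correlation of -0.0574, as a description over genes, which are not independent replicates.

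The levels in the 4 sh1487 groups show where the 2-fold genes lay. For the 740 genes higher with cDNA on dox the median of the mean levels was 41.3 CPM with cDNA and 14.8 CPM without, against 46.1 and 46.9 CPM in the lines with and without cDNA off dox. For the 686 lower genes it was 8.76 CPM with cDNA and 28.8 CPM without, against 5.16 and 5.42 CPM off dox. In both sets the group on dox without cDNA had the median farthest from those of the other 3 groups. The cDNA dox mean lay below both no-dox means for 405 of the 740 higher genes and above both for 190, and it lay above both no-dox means for 556 of the 686 lower genes and below both for 72.

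**Figure D2:**
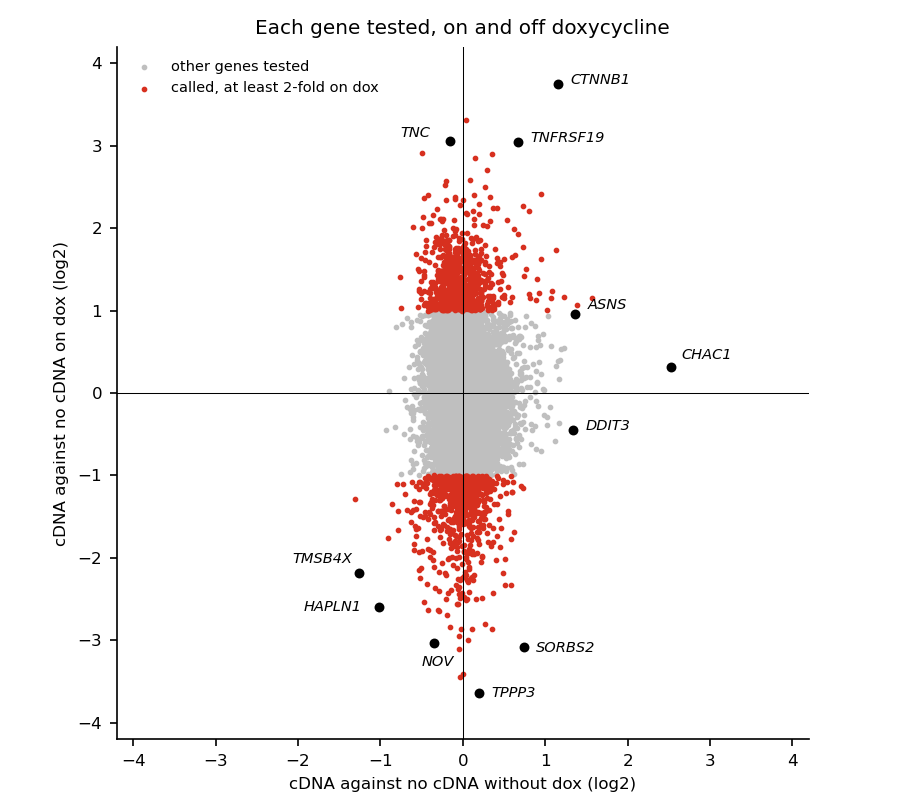
Log2 difference of cDNA against no cDNA without dox (x axis) and on dox (y axis) for the 13381 genes tested, with red for the 740 and 686 genes called at least 2-fold on dox and black for named genes. The points spread along the vertical axis, and CHAC1, at 2.53 without dox and 0.32 on dox, lies farthest to the right.

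The 15 largest higher and 13 of the 15 largest lower differences on dox are described here. After CTNNB1 came MEP1B, a meprin metalloprotease of the gut brush border, at 68.8, 62.8 and 66.4 CPM with cDNA and 5.64, 5.65 and 5.92 without (3.31 ± 0.06). TNC, the matrix protein tenascin C, was at 31.2, 32.3 and 31.8 against 3.04, 2.83 and 2.91 CPM (3.06 ± 0.06). TNFRSF19, a Wnt-responsive receptor of the intestinal crypt also called TROY, was at 12.8, 12.7 and 13.0 against 0.616, 0.846 and 0.563 CPM (3.05 ± 0.06). In all of these every cDNA library was above every library without. CALB1, a calcium-binding protein, was at 77.1, 67.0 and 72.3 against 8.82, 7.62 and 9.82 CPM (2.91 ± 0.07), and SPINK5, a serine protease inhibitor, at 54.1, 50.3 and 55.4 against 6.33, 6.41 and 6.74 CPM (2.85 ± 0.06). HDC, histidine decarboxylase, which makes histamine, was at 174, 168 and 181 against 28.9, 29.8 and 29.5 CPM (2.53 ± 0.05). Off dox HDC stood far above its level in either dox group, at 729.8 ± 34.8 CPM with cDNA and 845 ± 54.8 CPM without. NXPH1, SEMA5A, MAL2, ABCB4, KCNJ6, ASCL2, KRT39 and LIX1 completed the higher genes, with log2 differences from 2.38 ± 0.05 to 2.90 ± 0.06.

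Among the lower genes TPPP3, a tubulin-binding protein, was at 7.24, 6.90 and 6.88 CPM with cDNA and 98.6, 106 and 91.98 without (-3.64 ± 0.07). OR51E1, an olfactory receptor gene also expressed outside the nose, was at 2.98, 2.42 and 2.39 against 40.0, 37.2 and 37.2 CPM (-3.45 ± 0.07), and P2RX1, an ATP-gated ion channel, at 1.27, 1.14 and 1.29 against 22.2, 23.5 and 22.2 CPM (-3.40 ± 0.07). Both stood under 1 CPM in every sh1487 library off dox. NOV, which encodes the matricellular protein CCN3, was at 69.6, 65.4 and 69.0 CPM with cDNA and 562, 566 and 569 without (-3.04 ± 0.05; limma adjusted p 1.33e-18). SLC8A1, a sodium-calcium exchanger, was at 8.74, 8.01 and 8.74 against 73.5, 70.0 and 73.7 CPM (-2.95 ± 0.08), and the troponin gene TNNC1 at 4.37, 3.97 and 4.66 against 38.7, 37.9 and 37.1 CPM (-2.87 ± 0.08). SORBS2, an actin-linked adaptor, was at 4.13, 3.67 and 3.76 against 41.4, 38.2 and 41.2 CPM (-3.09 ± 0.07) and was the reverse off dox, at 4.18 ± 0.377 with cDNA and 2.10 ± 0.0159 CPM without (0.74 ± 0.07). SUSD2, PHACTR1, LOXL4, EDIL3, CRIP2 and ISX were the remaining genes described, from -3.003 ± 0.08 to -2.64 ± 0.12.

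**Figure D3:**
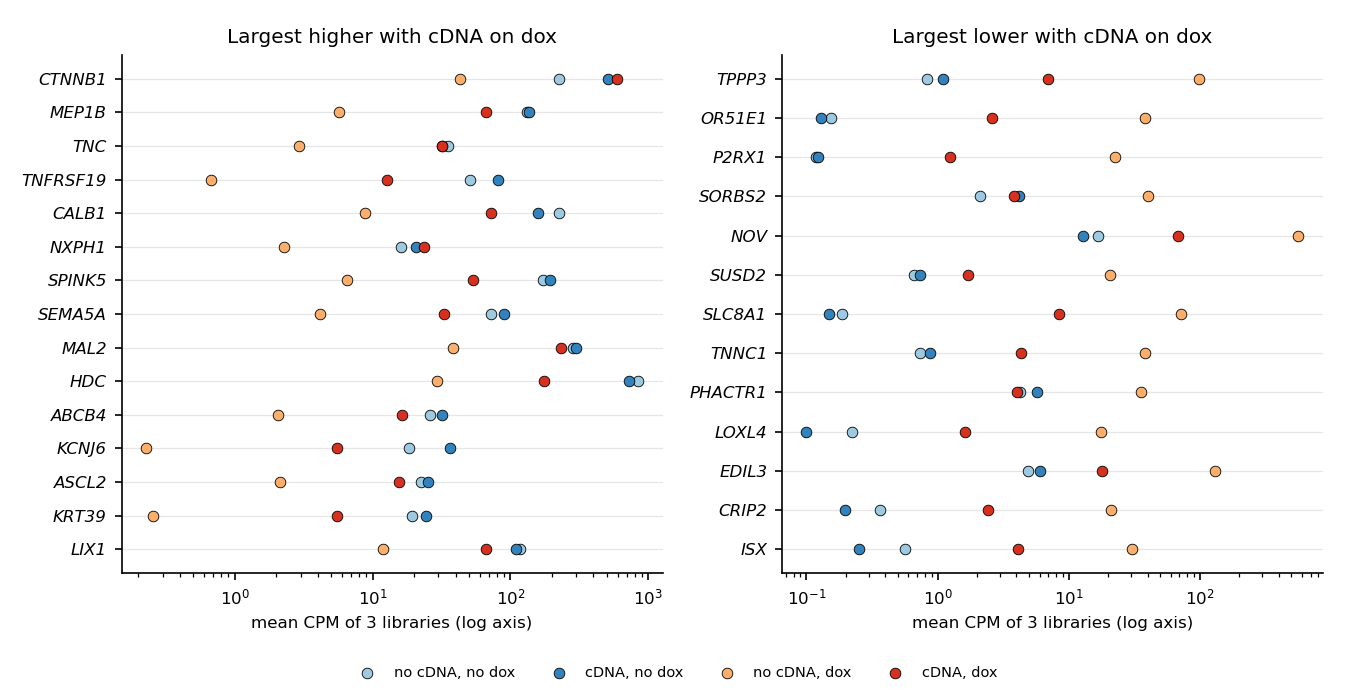
Mean CPM of 3 libraries (log axis) in the 4 sh1487 groups for the 15 genes with the largest higher difference (left) and 13 of the 15 with the largest lower difference (right) on dox. In each gene the orange point, on dox without cDNA, lies outside the other 3 points, to the left for the higher genes and to the right for the lower ones.

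Inhibitors and negative feedback genes of Wnt signalling were mostly higher with cDNA on dox. Of 16 tested, 11 were higher and 4 lower, against 36.5% and 40.7% of all genes, and 6 were at least 2-fold higher, against 5.53% of all genes. The list's median was 0.80. AXIN2, the scaffold of the destruction complex whose gene is the textbook readout of the pathway, was at 178, 196 and 173 CPM with cDNA and 43.8, 44.0 and 42.3 without, with no overlap (2.04 ± 0.05; limma adjusted p 2.52e-16). APCDD1, a membrane-bound Wnt inhibitor, was at 306, 314 and 310.1 against 59.8, 60.2 and 61.7 CPM (2.34 ± 0.04). NOTUM, an enzyme that removes the lipid of Wnt ligands, was at 46.3, 52.5 and 45.3 against 10.04, 10.9 and 10.4 CPM (2.10 ± 0.07). Each of these had its highest library without cDNA below its lowest with cDNA.

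RNF43 and ZNRF3, which encode ubiquitin ligases that remove Frizzled receptors, were at 117 ± 3.46 against 43.7 ± 1.15 CPM and 90.6 ± 7.39 against 47.0 ± 2.08 CPM (1.39 ± 0.04 and 0.93 ± 0.07). Off dox neither was called, at -0.05 ± 0.04 and -0.01 ± 0.07. NKD2 and NKD1, inhibitors that bind Dishevelled, were higher by log2 differences of 1.99 ± 0.07 and 0.71 ± 0.09. WIF1, a secreted Wnt-binding protein, was higher with cDNA on dox, at 2.86 ± 0.277 against 0.764 ± 0.175 CPM (1.13 ± 0.09). Off dox WIF1 was at 12.5 ± 1.46 against 6.28 ± 0.194 CPM (0.89 ± 0.09). The difference between these log2 values was not called (0.25 ± 0.12). The WIF1 level on dox without cDNA was under 1 CPM, where the scale understates the change. DKK3, a Dickkopf relative, was lower, at 2.50, 2.57 and 2.38 against 6.81, 6.83 and 6.50 CPM (-1.15 ± 0.07), and so was KREMEN1, a Dickkopf receptor (-0.59 ± 0.07).

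Genes of TCF/LEF factors went in both directions. Of 20 factors and nuclear partners, 5 were higher and 9 lower on dox, the lower share near the 40.7% of all genes and the higher share under their 36.5%, and the median was -0.09 against -0.03 for all genes. LEF1 was at 195, 204 and 191 CPM with cDNA and 64.9, 61.2 and 61.2 without (1.64 ± 0.05), and TCF7 at 35.97, 44.9 and 35.8 against 9.40, 9.72 and 9.39 CPM (1.92 ± 0.08). Both were the only members at least 2-fold higher, and in both every cDNA library exceeded every library without. TCF7L2, the main TCF factor of the gut epithelium, was lower, at 33.6 ± 2.95 against 45.9 ± 0.540 CPM (-0.44 ± 0.06). The coactivators BCL9 and BCL9L, which tether β-catenin to Pygopus, were lower, with log2 differences of -0.48 ± 0.06 and -0.96 ± 0.12.

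Of 20 destruction complex genes 14 were lower and 2 higher with cDNA, where 40.7% and 36.5% of all genes were, with a median of -0.28. The 2 higher ones were AXIN2 and AMER1, which recruits the complex to the membrane (103 ± 2.94 against 49.0 ± 1.75 CPM, 1.05 ± 0.05). GSK3B, the kinase that phosphorylates β-catenin, was lower, with a log2 difference of -0.55 ± 0.06, and the scaffold APC was at 127, 104 and 114 against 145, 137 and 152 CPM (-0.34 ± 0.07). CSNK1A1, the priming kinase, was not called (-0.02 ± 0.07). Of 28 Wnt ligands, receptors and transducers, 13 were higher and 12 lower, against 36.5% and 40.7% of all genes, with a median of 0.02. WNT11 was higher (19.0 ± 1.93 against 6.09 ± 0.0616 CPM, 1.49 ± 0.06) and so was the receptor kinase ROR1 (1.38 ± 0.08), while WNT16 and WNT5A were lower (-1.27 ± 0.07 and -0.77 ± 0.05). LGR4, a receptor for R-spondins, was lower (-0.89 ± 0.05).

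Of 39 textbook targets of β-catenin and TCF, 22 were higher and 12 lower, against 36.5% and 40.7% of all genes. At least 2-fold, 12 were higher and 4 lower, against 5.53% and 5.13% of all genes, and the median was 0.30. This list shares 7 genes with the inhibitors and 12 with the stem cell list. MYC was at 3151, 3216 and 3007 CPM with cDNA and 1584, 1567 and 1633 without, with no overlap (0.97 ± 0.07). CCND1, a G1 cyclin, was at 7.44, 8.13 and 6.40 against 2.52, 2.404 and 2.41 CPM (1.27 ± 0.08). Members that went the other way included ID2, an inhibitor of helix-loop-helix factors, at 11.1, 9.29 and 10.5 against 44.0, 43.4 and 43.3 CPM (-1.98 ± 0.07), and BMP4, a secreted ligand, at 12.3, 11.995 and 14.1 against 34.3, 35.1 and 32.6 CPM (-1.34 ± 0.06). EPHB3, a guidance receptor of crypt cells, was lower at 12.8, 16.4 and 14.2 against 40.0, 41.4 and 39.8 CPM (-1.43 ± 0.08), whereas its relative EPHB2 was not called (-0.14 ± 0.06; limma adjusted p 0.0563). EPHB2 passed the threshold when the second sh1487 cDNA dox library was left out, at -0.19.

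Of the genes that mark the crypt base stem cell, 18 were tested. With cDNA 10 were higher and 5 lower, against 36.5% and 40.7% of all genes, and 7 were at least 2-fold higher, against 5.53%, with a median of 0.59 on dox and -0.03 off dox. The count of lower members became 3 when the first sh1487 dox library was left out. ASCL2, a master regulator of the crypt stem cell, was at 14.6, 16.4 and 15.8 CPM with cDNA and 2.04, 2.33 and 2.04 without (2.404 ± 0.06). LGR5, the R-spondin receptor that marks these cells, was at 9.48, 8.97 and 9.22 against 3.35, 4.07 and 3.73 CPM (1.12 ± 0.06). Off dox both were higher than in either dox group, at 25.1 ± 1.74 and 22.6 ± 0.0314 CPM for ASCL2 and 20.8 ± 1.12 and 18.5 ± 0.499 CPM for LGR5. CDCA7, a gene of crypt progenitors, was higher (60.2 ± 2.84 against 21.8 ± 0.659 CPM, 1.42 ± 0.05) and so was CD44, a surface glycoprotein, at low levels (1.99, 2.12 and 2.43 against 0.495, 0.478 and 0.548 CPM, 1.08 ± 0.07).

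**Figure D4:**
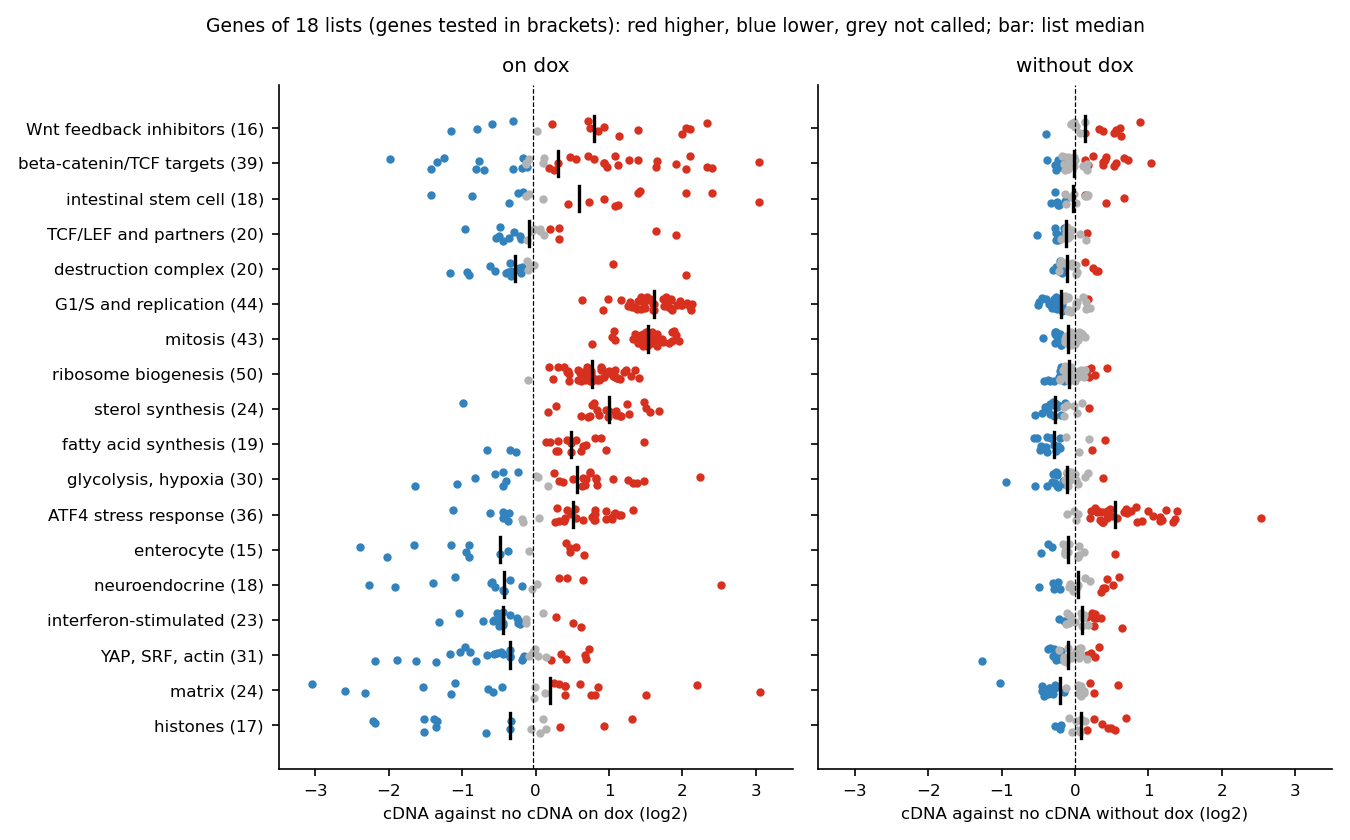
Log2 difference of cDNA against no cDNA on dox (left) and without dox (right) for the genes of 18 lists, with the number tested in brackets, red for genes called higher, blue for genes called lower, grey for genes not called, a bar at the list's median and a dashed line at the median of all genes. On dox every G1/S and mitosis gene lies to the right of 0, and without dox the ATF4 stress response list has 32 of 36 genes called higher.

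Genes of DNA replication and mitosis were higher with cDNA on dox without exception among those tested. All 44 genes of the G1/S and replication list were higher, against 36.5% of all genes, 41 of them at least 2-fold, against 5.53%, with a median of 1.61 and a lowest value of 0.63. All 43 mitosis genes were higher, 42 at least 2-fold, with a median of 1.52 and a lowest value of 0.77. No library with cDNA overlapped one without for any gene of either list, against non-overlap in 78.9% of all genes. Off dox the medians were -0.19 and -0.09, and 27 of the 44 replication genes were lower with cDNA, against 19.5% of all genes. The count of mitosis genes lower off dox was 14, which became 6 without the second sh1487 no dox library and 7 without the first sh1487 cDNA no dox library.

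MCM4 and MCM3, subunits of the replicative helicase, were at 313 ± 13.2 against 71.5 ± 1.67 CPM and 275 ± 10.04 against 69.9 ± 2.29 CPM (2.11 ± 0.04 and 1.96 ± 0.04). RRM2, the regulated subunit of ribonucleotide reductase, was at 322, 303 and 302 CPM with cDNA and 70.8, 66.7 and 71.8 without (2.13 ± 0.05). TYMS, thymidylate synthase, was at 45.5, 43.7 and 44.8 against 11.6, 11.9 and 11.98 CPM (1.83 ± 0.05). The flap endonuclease gene FEN1 and the initiation factor gene MCM10 were higher by log2 differences of 1.85 ± 0.05 and 1.98 ± 0.05. Among mitosis genes MKI67, the Ki-67 proliferation antigen, was at 477, 430.0 and 426 CPM with cDNA and 113, 110.0 and 119.8 without (1.95 ± 0.06), with the off-dox groups at 516 ± 31.8 and 519 ± 23.3 CPM. BUB1B, a spindle checkpoint kinase, was at 125, 109.7 and 124 against 32.1, 31.6 and 33.1 CPM (1.86 ± 0.05), and the spindle motor gene KIF11 at 98.4, 101 and 96.8 against 35.3, 33.8 and 35.0 CPM (1.48 ± 0.04). BIRC5, which encodes survivin, KIF2C and ESPL1, the gene of separase, were higher by log2 differences of 1.65 ± 0.04, 1.72 ± 0.05 and 1.82 ± 0.05.

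The promoters of these groups are shown because their members moved together, and E2F sites and CHR elements are textbook elements of replication and mitosis promoters. The 250 bases before the RefSeq start (GRCh38.p14) are printed 5′ to 3′ in the direction of the gene for 2 genes of each list. These genes were taken from the 6 members with the smallest p, and their windows held the element. MCM4, with the smallest p of the replication list, is not shown. The capitals mark an E2F site in MCM3 (chr6:52284743-52284992, minus strand) and TYMS (chr18:657403-657652, plus strand), and a CHR, the cell cycle homology element TTTGAA, in BUB1B (chr15:40160819-40161068, plus strand) and KIF11 (chr10:92592880-92593129, plus strand):
MCM3: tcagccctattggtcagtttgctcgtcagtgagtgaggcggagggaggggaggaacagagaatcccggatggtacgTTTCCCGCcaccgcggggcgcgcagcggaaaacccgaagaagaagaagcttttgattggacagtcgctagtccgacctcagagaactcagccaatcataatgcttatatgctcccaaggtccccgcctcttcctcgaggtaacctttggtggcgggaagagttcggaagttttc
TYMS: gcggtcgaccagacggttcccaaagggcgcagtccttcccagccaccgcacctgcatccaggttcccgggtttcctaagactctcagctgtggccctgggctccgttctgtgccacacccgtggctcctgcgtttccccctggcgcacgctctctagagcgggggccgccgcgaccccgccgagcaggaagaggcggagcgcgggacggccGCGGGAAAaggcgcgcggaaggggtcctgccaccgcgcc
BUB1B: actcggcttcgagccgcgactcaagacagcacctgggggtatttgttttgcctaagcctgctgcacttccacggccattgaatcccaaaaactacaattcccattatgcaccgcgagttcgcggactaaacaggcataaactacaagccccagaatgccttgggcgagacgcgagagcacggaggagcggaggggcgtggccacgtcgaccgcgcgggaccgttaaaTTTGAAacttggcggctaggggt
KIF11: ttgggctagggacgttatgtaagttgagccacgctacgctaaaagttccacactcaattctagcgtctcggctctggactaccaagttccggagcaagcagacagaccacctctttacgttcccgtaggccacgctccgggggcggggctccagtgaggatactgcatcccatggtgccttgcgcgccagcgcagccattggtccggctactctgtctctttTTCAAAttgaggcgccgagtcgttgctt
The E2F site starts at base -174 in MCM3 and, on the other strand, at base -39 in TYMS, and the CHR starts at base -23 in BUB1B and, on the other strand, at base -28 in KIF11, counted from the start site.

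Both strands of each window were searched, and a window was found for 10116 of the 13381 genes tested. E2F sites were spelled TTTGGCGC, TTTCCCGC, TTTGCCGC or TTTCGCGC, and 4.4% of those windows held at least one of these spellings. They were in 17 of the 38 replication gene windows (44.7%) and 2 of the 36 mitosis windows (5.56%). TTTGAA was in 8.7% of all windows, 22 of the 36 mitosis windows (61.1%) and 1 of the 38 replication windows (2.63%). CCAAT was in 35.3% of all, 29 of the 36 mitosis windows (80.6%) and 15 of the 18 sterol synthesis windows (83.3%). Among the genes at least 2-fold higher on dox, 8.78% of 547 windows held an E2F spelling and 17.6% held TTTGAA, and among those lower 1.42% and 9.15% of 492. The TCF/LEF spelling CTTTGAT was in 1.43% of all windows and in 0 of the 25 windows of β-catenin target genes, which says only that these letters are absent from those 250 bases. AXIN2 is not in the sequence table used. CTTTGAT and TTTGAA share the letters TTTGA but neither contains the other.

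Regulators of G1 moved in both directions. Of 18 cyclins, kinases, inhibitors and pocket proteins, 7 were higher and 10 lower, against 36.5% and 40.7% of all genes. CDK6, a G1 kinase, was at 95.7, 92.4 and 85.8 CPM with cDNA and 31.8, 31.1 and 33.6 without (1.48 ± 0.07). CCND2, a D cyclin that activates it, was at 272, 320.1 and 285 against 119.6, 123 and 109 CPM (1.31 ± 0.08). CCND3, another D cyclin, was lower at 46.9, 55.6 and 47.5 against 102, 104 and 102 CPM (-1.03 ± 0.08). The CDK inhibitor CDKN2B was at 3.07, 3.37 and 2.86 CPM with cDNA and 9.91, 11.4 and 11.1 without (-1.52 ± 0.08), and under 1 CPM in every sh1487 library off dox. CCNG2, an atypical cyclin linked to cell cycle exit, was lower (-1.41 ± 0.06), as were CDKN1B, the gene of p27 (-0.65 ± 0.05), and CDKN1A, the gene of p21, at 1.51 ± 0.0485 against 2.26 ± 0.256 CPM (-0.37 ± 0.08). CDKN2A was not called (0.11 ± 0.07), but passed when the second sh1487 dox library was left out, at 0.17.

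Nucleolar and ribosome biogenesis genes regulated by MYC were higher in 49 of 50 cases with none lower, against 36.5% and 40.7% of all genes. At least 2-fold, 13 were higher, against 5.53% of all genes. The list's median was 0.77 on dox and -0.08 off dox. FBL, the nucleolar methyltransferase fibrillarin, was at 242, 235 and 249 CPM with cDNA and 96.7, 101 and 94.8 without (1.30 ± 0.04). CAD, the enzyme that opens pyrimidine synthesis, was at 232, 256 and 229 against 89.2, 88.5 and 89.6 CPM (1.41 ± 0.06). NOLC1, PUS7, POLR1E and RRP1B, which act in rRNA transcription, modification or assembly, were higher by log2 differences of 1.15 ± 0.04, 1.35 ± 0.04, 1.11 ± 0.05 and 0.88 ± 0.04.

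Cholesterol synthesis genes were higher with cDNA on dox in 23 of 24 cases and lower in 1, against 36.5% and 40.7% of all genes. At least 2-fold, 11 were higher, against 5.53% of all genes, and the median was 0.99. INSIG1, which holds the sterol sensor SCAP in the endoplasmic reticulum, was at 134, 128 and 134 CPM with cDNA and 42.0, 38.4 and 41.4 without (1.68 ± 0.05). HMGCS1, which makes the HMG-CoA of the pathway, was at 316, 266 and 306 against 107, 97.5 and 107 CPM (1.502 ± 0.06), and DHCR7, SQLE, ACAT2 and FDFT1 were higher by log2 differences of 1.48 ± 0.05, 1.27 ± 0.05, 1.56 ± 0.06 and 1.14 ± 0.05. Off dox the same list had 17 genes lower with cDNA, against 19.5% of all genes, and a median of -0.27, and HMGCS1 was at 235 ± 9.23 against 344 ± 13.2 CPM (-0.55 ± 0.06).

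Fatty acid synthesis had the same 2 directions, with 16 of 19 genes higher and 3 lower on dox (36.5% and 40.7% of all genes) and 14 lower off dox (19.5% of all genes). SCD, the stearoyl-CoA desaturase, was at 1284, 1229.8 and 1282 against 455, 439 and 469 CPM on dox (1.48 ± 0.05). FASN, fatty acid synthase, was at 907, 1093 and 866 against 497, 514 and 531 CPM (0.89 ± 0.10) on dox and at 631 ± 85.5 against 927 ± 108 CPM off dox (-0.56 ± 0.10). FADS1, a desaturase of long chains, was higher on dox by 0.96 ± 0.04.

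Of 30 glycolysis and hypoxia genes, 19 were higher and 8 lower, against 36.5% and 40.7% of all genes, with a median of 0.57. HK2, the inducible hexokinase, was at 69.7, 73.5 and 64.0 CPM with cDNA and 14.2, 13.0 and 14.4 without (2.24 ± 0.06), and LDHA, lactate dehydrogenase, at 1532, 1344 and 1529.7 against 540.4, 519 and 518 CPM (1.48 ± 0.06). ENO1, PFKFB4 and PDK1 were higher by log2 differences of 1.26 ± 0.05, 1.39 ± 0.05 and 1.32 ± 0.05. EGLN3, an oxygen sensor induced by hypoxia, was lower at 22.3, 21.7 and 22.8 against 74.6, 71.4 and 69.2 CPM (-1.64 ± 0.06), and so was HK1, the hexokinase of most tissues (-0.45 ± 0.05), which was lower off dox as well (-0.93 ± 0.05). Of 33 nuclear genes of the respiratory chain, 13 were higher, 4 lower and 16 not called, with none at 2-fold. The higher share was near the 36.5% of all genes and the lower share well under their 40.7%. The 13 mitochondrially encoded mRNAs had a median of -0.07.

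Genes of the integrated stress response were mostly higher with cDNA off dox as well as on it. ATF4 and its partner CHOP, encoded by DDIT3, are transcription factors that switch on amino acid synthesis, transport and, when stress lasts, death genes. Off dox 32 of 36 genes were higher with cDNA and none lower, against 20.6% of all genes higher, with a median of 0.54. On dox 25 were higher and 8 lower, against 36.5% and 40.7% of all genes, with a median of 0.51. CHAC1, a glutathione-degrading enzyme induced by CHOP, was at 21.6, 21.8 and 22.7 CPM with cDNA and 2.99, 2.80 and 3.18 without off dox (2.53 ± 0.07), the largest difference named there. On dox it was at 6.98, 7.94 and 7.73 against 5.45, 6.03 and 6.11 CPM (0.32 ± 0.07). In the shNT libraries off dox CHAC1 was at 38.3 ± 4.33 CPM with cDNA and 34.7 ± 2.53 CPM without. The cDNA difference in the shNT lines was not tested.

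Several amino acid synthesis and transport genes of the list were higher with cDNA on dox. PHGDH, which opens serine synthesis, was at 379.9, 384 and 394 against 157, 159 and 143 CPM (1.33 ± 0.05), and MTHFD2, PYCR1, ALDH18A1 and SLC7A5 were higher by log2 differences of 1.09 ± 0.05, 1.13 ± 0.06, 1.03 ± 0.05 and 1.16 ± 0.06. ASNS, asparagine synthetase, and SLC7A11, the cystine transporter, were higher under both diets, by 0.96 ± 0.07 and 1.07 ± 0.08 on dox and by 1.36 ± 0.07 and 1.39 ± 0.08 off dox. DDIT3 was at 20.2, 22.98 and 22.7 CPM with cDNA and 30.0, 31.0 and 29.8 without on dox (-0.45 ± 0.06), and at 59.6, 58.0 and 66.8 against 23.1, 24.05 and 23.8 CPM off dox (1.34 ± 0.06). PPP1R15A, the phosphatase subunit that ends the response, was at 27.0, 29.6 and 28.2 against 61.2, 64.8 and 62.7 CPM on dox (-1.13 ± 0.05) and at 42.5 ± 2.24 against 25.7 ± 1.17 CPM off dox (0.71 ± 0.05). DDIT3 and PPP1R15A thus had opposite signs under the 2 diets with no overlap of libraries in either.

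**Figure D5:**
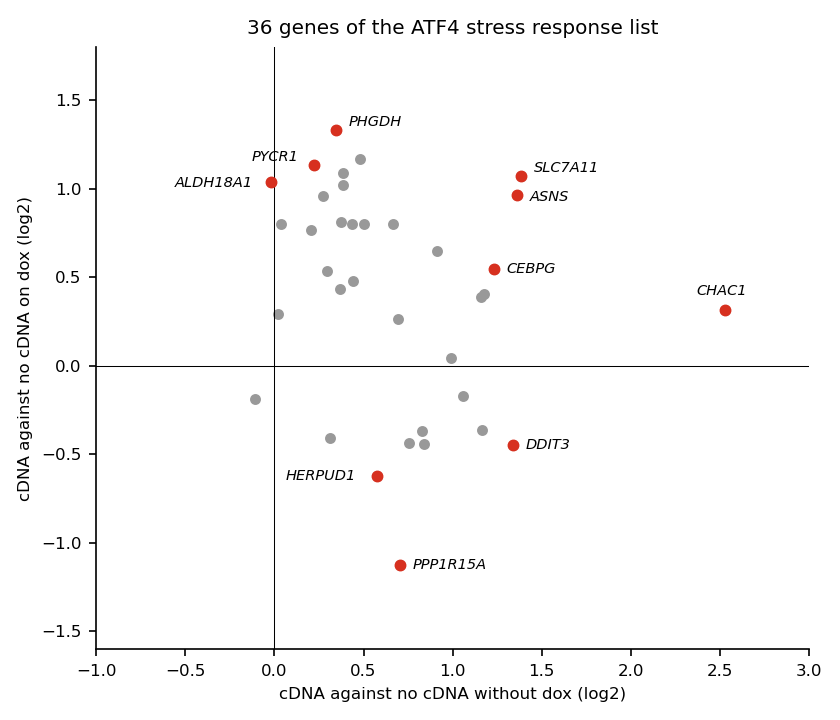
Log2 difference of cDNA against no cDNA without dox (x axis) and on dox (y axis) for the 36 tested genes of the ATF4 stress response list, with labelled genes in red. CHAC1, DDIT3, PPP1R15A and HERPUD1 lie to the right and near or below 0 on the y axis, and 7 genes lie above 1 on the y axis, from ALDH18A1 at -0.02 to SLC7A11 at 1.39 on the x axis.

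Of 20 cytosolic aminoacyl-tRNA synthetases 17 were higher on dox and none lower, against 36.5% and 40.7% of all genes, with a median of 0.49, and IARS, YARS, MARS and FARSB were higher by log2 differences of 1.06 ± 0.06, 0.68 ± 0.04, 0.70 ± 0.05 and 0.89 ± 0.06. MARS differed by a similar amount off dox (0.69 ± 0.05), and the difference of the 2 effects was 0.01 ± 0.07. Of 22 chaperones and other genes of the unfolded protein response 14 were higher and 4 lower, against the same shares. The chaperone gene HSPA5 was higher by a log2 difference of 0.32 ± 0.05, the disulfide isomerase genes PDIA4 and PDIA6 by 0.95 ± 0.04 and 1.09 ± 0.05, and the transcription factor gene XBP1 by 0.65 ± 0.05. HERPUD1, a gene of protein degradation at the endoplasmic reticulum, was lower on dox (125 ± 3.51 against 194 ± 2.41 CPM, -0.62 ± 0.04) and higher off dox (0.58 ± 0.04).

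Of 15 enterocyte genes 9 were lower and 5 higher with cDNA on dox, where 40.7% and 36.5% of all genes were. At least 2-fold, 4 were lower and none higher, against 5.13% and 5.53% of all genes, and the median was -0.48. KLF5, a Krüppel-like factor of the gut epithelium, was at 28.5, 27.8 and 27.1 CPM with cDNA and 149.8, 148 and 154 without (-2.40 ± 0.06), against 10.8 ± 0.375 and 11.99 ± 1.09 CPM off dox. KRT20, the keratin of differentiated colonocytes, was at 12.4, 11.6 and 11.9 against 52.5, 52.3 and 50.4 CPM (-2.02 ± 0.06). SI, the sucrase-isomaltase of the brush border, was at 1.63, 1.22 and 1.81 against 7.31, 6.60 and 7.20 CPM (-1.66 ± 0.09), and VIL1, the brush border protein villin, at 0.301, 0.418 and 0.302 against 1.47, 1.43 and 1.61 CPM (-0.90 ± 0.07). SI and VIL1 were under 1 CPM in every sh1487 library off dox. KRT8 and KRT18, the paired simple epithelial keratins, were lower, with log2 differences of -1.15 ± 0.05 and -0.91 ± 0.06. CDX2 and the cadherin gene CDH17 were higher by log2 differences of 0.46 ± 0.07 and 0.47 ± 0.07. Of the 4 tested genes of secretory cells, 2 were higher and none lower, against 36.5% and 40.7% of all genes. The higher ones included ATOH1, the factor that sets the secretory fate (2.55, 2.24 and 2.34 against 0.937, 1.42 and 1.00 CPM, 0.68 ± 0.09). HES1, the Notch effector that opposes ATOH1, was not called, at 5.76, 7.34 and 5.98 against 5.86, 6.44 and 5.83 CPM (0.06 ± 0.08), and was at 0.969 ± 0.108 and 0.693 ± 0.0921 CPM off dox.

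Neuroendocrine and enteroendocrine genes were lower in 12 of 18 cases and higher in 4, against 40.7% and 36.5% of all genes, with a median of -0.44 against -0.03. TAC3, which encodes neurokinin B, was at 126, 125 and 141 CPM with cDNA and 496, 525 and 463 without (-1.91 ± 0.06). STMN2, a neuronal microtubule protein, was at 29.9, 23.97 and 28.1 against 139, 133 and 134 CPM (-2.27 ± 0.07). PCSK1, a prohormone convertase, was at 0.285, 0.308 and 0.231 against 2.44, 1.94 and 2.69 CPM (-1.39 ± 0.08), and ISL1, an endocrine homeobox gene, and SYP, the gene of synaptophysin, were lower, with log2 differences of -1.10 ± 0.06 and -0.60 ± 0.05. HDC was the only member at least 2-fold higher.

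Targets of YAP and SRF and genes of the actin cytoskeleton were lower in 20 of 31 cases and higher in 6, against 40.7% and 36.5% of all genes. At least 2-fold, 6 were lower, against 5.13% of all genes, and none higher, with a median of -0.35. TMSB4X, which encodes thymosin β4, an actin monomer binder, was at 61.2, 52.5 and 64.4 CPM with cDNA and 280.5, 271 and 267 without (-2.19 ± 0.07). It was also lower off dox, at 3.84, 3.40 and 3.67 against 9.66, 10.6 and 10.2 CPM (-1.26 ± 0.07). CTGF, a YAP target also named CCN2, was at 7.39, 6.31 and 6.53 against 28.3, 26.2 and 28.2 CPM (-1.88 ± 0.08), and LATS2 and AMOTL2, inhibitors of YAP that it induces, were lower, with log2 differences of -1.36 ± 0.06 and -1.04 ± 0.05. S100A4 and the lamin gene LMNA were lower, with log2 differences of -1.62 ± 0.08 and -1.16 ± 0.06.

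Of 24 matrix genes 12 were higher and 9 lower, against 36.5% and 40.7% of all genes, with a median of 0.19. HAPLN1, which links hyaluronan to proteoglycans, was at 115, 99.96 and 113 CPM with cDNA and 678, 637 and 678 without (-2.59 ± 0.07). Off dox it was at 0.291, 0.372 and 0.180 against 1.68, 1.63 and 1.47 CPM (-1.02 ± 0.07). THBS1, thrombospondin, was at 13.7, 13.4 and 13.99 against 74.9, 68.2 and 74.8 CPM (-2.32 ± 0.07), and IGFBP5, a binding protein of insulin-like growth factors, was lower, with a log2 difference of -1.53 ± 0.06. COL13A1, a transmembrane collagen, was higher at 5.43, 5.98 and 5.52 against 0.469, 0.466 and 0.426 CPM (2.19 ± 0.05), though both groups were far below the off-dox levels of 60.5 ± 0.544 and 58.9 ± 1.35 CPM. COL3A1, a fibroblast marker, was at 53.9, 47.4 and 50.6 against 29.4, 27.9 and 31.9 CPM (0.75 ± 0.07), and the summed fibroblast markers were higher in the same libraries. Of the 7 fibroblast and pericyte markers tested, 4 were higher and 1 lower, against 36.5% and 40.7% of all genes. Their log2 differences ran from -1.81 to 0.94.

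FLT1, the gene of a VEGF receptor, and ERG, an ETS factor, both endothelial markers, moved in opposite directions. FLT1 was at 27.3, 25.7 and 26.2 CPM with cDNA and 157, 146 and 158 without (-2.50 ± 0.07), and ERG at 64.3, 64.3 and 62.6 against 14.1, 14.3 and 14.01 CPM (2.10 ± 0.05). Off dox FLT1 was at 2.09 ± 0.299 and 2.56 ± 0.275 CPM and ERG at 87.0 ± 2.57 and 94.0 ± 5.52 CPM. PTPRC, the leukocyte gene CD45, was lower at 40.4, 35.5 and 40.4 against 47.5, 47.1 and 45.5 CPM (-0.27 ± 0.06). Of the 3 leukocyte markers tested, 1 was higher and 2 lower, against 36.5% and 40.7% of all genes. Their log2 differences ran from -0.44 to 0.63.

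Among 26 genes of BMP and TGF-β signalling 10 were higher and 11 lower, shares near the 36.5% and 40.7% of all genes. GREM1, a BMP antagonist, was at 30.7, 28.5 and 29.2 CPM with cDNA and 8.35, 7.31 and 7.70 without (1.79 ± 0.05). BMP4 and ID1, a target of BMP signalling, were lower (-1.34 ± 0.06 and -1.26 ± 0.08), and BMP6, another ligand, was higher (8.95, 9.14 and 9.17 against 1.65, 1.57 and 1.36 CPM, 2.00 ± 0.07). Off dox BMP4 was higher with cDNA (0.41 ± 0.06) and BMP6 lower (-0.49 ± 0.07).

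Interferon-stimulated genes were lower in 17 of 23 cases and higher in 3, against 40.7% and 36.5% of all genes, with a median of -0.44 on dox and 0.10 off dox. IFI6 was at 17.1, 16.9 and 17.9 CPM with cDNA and 44.8, 45.7 and 42.8 without (-1.31 ± 0.06). The signal transducer gene STAT2 and the antiviral gene IFITM2 were lower, with log2 differences of -0.72 ± 0.06 and -1.04 ± 0.09. Of 15 MHC and antigen processing genes 7 were higher and 4 lower, and of 25 immediate-early and MAPK feedback genes 7 were higher and 15 lower, against the same shares. FOS, an AP-1 subunit, and the phosphatase gene DUSP1 were lower, with log2 differences of -0.77 ± 0.05 and -0.65 ± 0.05, and SPRY4, a feedback inhibitor of receptor kinases, was lower, with a log2 difference of -1.68 ± 0.11 (1.20, 1.28 and 0.922 against 5.98, 6.05 and 5.48 CPM). ETV4, ETV5 and DUSP5, also induced by MAPK signalling, were higher by log2 differences of 1.17 ± 0.10, 0.63 ± 0.05 and 0.99 ± 0.10.

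Of 17 histone genes, 3 were higher and 10 lower with cDNA on dox, against 36.5% and 40.7% of all genes, and 7 were at least 2-fold lower, against 5.13%. HIST1H2AC was at 33.0, 30.1 and 33.0 CPM with cDNA and 152, 147 and 148 without (-2.18 ± 0.06), and HIST1H4H at 14.5, 15.1 and 14.8 against 72.2, 71.3 and 73.4 CPM (-2.21 ± 0.06). HIST2H2BE, HIST1H2BD, HIST1H3H, HIST1H1C and HIST1H2BC were lower by log2 differences from -1.35 ± 0.08 to -1.52 ± 0.06. The libraries were made from poly(A) RNA, which replication-dependent histone mRNAs mostly lack, and histone genes resemble each other closely, so these levels are uncertain. The variant histone genes H2AFZ and H2AFX, whose mRNAs can be polyadenylated, were higher by log2 differences of 1.31 ± 0.07 and 0.93 ± 0.07.

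Of 24 p53 targets and apoptosis regulators 9 were higher and 10 lower, shares near the 36.5% and 40.7% of all genes. BCL2L1, the gene of the survival protein BCL-XL, was lower at 33.7, 36.7 and 36.4 against 84.6, 88.9 and 81.8 CPM (-1.24 ± 0.06). Of 14 Eph receptors and ephrins 6 were higher and 5 lower, against the same shares, and of 9 factors and keratins of epithelial-mesenchymal transition 2 were higher and 6 lower.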

How the data were processed

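Poly(A) RNA of COLO320DM xenograft tumours was sequenced from stranded libraries, per the labels' protocols, 3 for each of 8 groups. The submitters' processing notes name the GRCh38 genome and edgeR 4.0.2, STAR 2.7.7a, Trimmomatic 0.39, Subread 2.4.2 and featureCounts, with no role or order. The deposited signal is 1 value per gene and library in CPM on an effective library size scaled by the authors, for 14119 genes, and 14106 of the IDs were found in GENCODE v29, which gave the positions. Each column's values were whole multiples of a constant, and 100% came out as whole reads within 0.001. Counting was to genes, so a cDNA and its chromosomal gene share a value.

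A gene was tested if 3 or more of the 12 sh1487 libraries reached 1 CPM (13381 tested, 738 removed). limma 3.58.1 (R 4.3.3) with a trend was fitted to log2(CPM + 1) of these 12 libraries with 4 group means, two-sided, with Benjamini-Hochberg adjustment over all genes tested and calls at an adjusted p under 0.05. The contrasts were cDNA against none on dox, the same off dox, and their difference. edgeR 4.0.16's quasi-likelihood test on the recovered reads called 10371 genes on dox, and DESeq2 1.42.0, other scalings, pseudocounts, filters, samples, a replicate block and leaving out each library were further alternatives. The fit was also run on simulated data with far fewer changed genes than were called here, so it cannot check these call counts.

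Genes named are CTNNB1, the 15 largest called differences each way on dox, and the 6 largest off dox and in the difference of effects. These differences had non-overlapping libraries, a mean of at least 1 CPM and a protein-coding gene type in GENCODE v29. Also named are up to 6 members with the smallest p from each list and any member of lists of up to 24 genes. Besides these, 13 genes were fixed by name. A few genes that the rule names are not reported here. Members, lists and motifs were chosen with earlier results of these data known, so list counts and medians carry no test and are read against the shares and median of all genes. No pair of libraries agreed within sampling noise (chi-square per degree of freedom 4.22 to 30.9 within groups). Deviations from the group mean were correlated between libraries with and without cDNA. With the same replicate number the correlations were 0.28, 0.41 and -0.14 on dox and 0.44, -0.20 and 0.20 off dox. With different numbers they ran from -0.54 to 0.37 on dox and from -0.42 to 0.32 off dox. These few values do not settle whether the numbers mark pairs, and the main fit did not take them as pairs.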

Additional observations from a re-analysis of the deposited data

Results flagged for a closer look

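The gap between lines with and without cDNA differed by diet for 9530 genes (limma interaction term, adjusted p under 0.05). In 2298 genes it was called in opposite directions on and off dox with a called difference, and in 230 of these by at least 0.4 on the log2 scale each way, a limit chosen after the data were seen. Those among the named genes are given here with the difference of the log2 effects, on dox minus off dox. In lipid synthesis it was 2.05 for HMGCS1 and 1.44 for FASN, and in DNA synthesis 2.62 for RRM2, each higher with cDNA on dox and lower off dox. The same direction held for DSG2 (2.25), BMP6 (2.49), CALB1 (3.40) and GC, the vitamin D binding protein (1.61). Among genes lower with cDNA on dox and higher off dox, the stress genes PPP1R15A, DDIT3 and HERPUD1 had differences of -1.83, -1.79 and -1.20. BMP4 (-1.75), SORBS2 (-3.83) and the histone genes HIST1H2AC (-2.67) and HIST1H2BD (-1.97) had the same pattern. Groups of 3 libraries were not tested for outliers.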

How the results depend on the processing

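On dox the 10334 calls became 9564 to 10275 when each library was left out in turn, and the 1426 genes at least 2-fold became 1336 to 1479; requiring 2-fold as part of the call gives 1426, pseudocounts of 5 and 0.1 give 832 and 1970, edgeR 2061 and DESeq2 2059. With the replicate number as a block the calls were 10270 on dox, 5199 off dox and 9461 for the difference. Off dox the 5364 calls became 4325 to 4973 with a library left out and 3273 with all 24 libraries in the fit, and the 27 genes at least 2-fold became 26 to 29 with a library left out, 104 by edgeR, 102 by DESeq2, 70 and 9 at pseudocounts of 0.1 and 5, and 17 at a mean of at least 5 CPM. Scaling by library size alone split the off-dox calls into 3292 higher and 2062 lower (2757 and 2607 as reported), DESeq2 size factors into 2337 and 3130. For the difference the 9530 calls became 8886 to 9599, and the 1697 genes at least 2-fold 1609 to 1724 or 958 and 2304 at pseudocounts of 5 and 0.1, 2371 by edgeR and 2389 by DESeq2. The cause of these shifts was not tested. Of the genes named, EPHB2 and CDKN2A changed their call on dox under an alternative and no called gene lost it, and of single values 10063 kept direction and call, 176 lost and 70 gained a call, and WIF1's difference of effects changed sign to -0.18 at a pseudocount of 5. Of list counts on dox 1227 stayed within 1.5 times and 29 did not, off dox 1105 and 151. Values near 1 CPM limit what low genes show.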

Other observations

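Off dox, where 0.202% of genes were called at least 2-fold in either direction, the rule named 6 higher and 6 lower genes. CEBPG, a bZIP partner of ATF4, was at 144, 143 and 158 CPM with cDNA and 60.5, 65.0 and 61.9 without (1.23 ± 0.05), next to CHAC1, SLC7A11, ASNS and DDIT3. On dox its levels were 64.6 ± 2.82 and 43.8 ± 1.46 CPM (0.55 ± 0.05). SLCO1A2, an organic anion transporter, was higher with cDNA off dox (1.56 ± 0.08) and on dox (1.16 ± 0.08), at low levels throughout.

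Among the lower genes off dox PCDH11X, a protocadherin, was at 3.79, 4.37 and 2.79 CPM with cDNA and 7.26, 7.59 and 8.03 without (-0.91 ± 0.10), and on dox at 12.6, 10.7 and 10.7 against 42.2, 37.4 and 42.6 CPM (-1.76 ± 0.10). CUX2, a homeobox gene, was lower under both diets (-0.86 ± 0.09 off dox, -1.34 ± 0.09 on dox). TXNDC5, a disulfide isomerase relative, was at 6.72, 8.52 and 6.40 against 14.02, 11.05 and 18.6 CPM off dox (-0.90 ± 0.13) and was not called on dox (0.02 ± 0.13). GC was at 22.6 ± 1.02 against 40.3 ± 1.41 CPM off dox (-0.81 ± 0.08) and at 11.9 ± 1.85 against 6.32 ± 0.375 CPM on dox (0.80 ± 0.08).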
